A study of Mus musculus with 12 samples.

Results

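The genes described here regulate the presomitic mesoderm and the somites of the mouse embryo: Tbx6, Msgn1, Dll1, Dll3, Mesp2, Ripply2, Meox1, Tcf15, Pcdh8 and Uncx. They were chosen by symbol, and all of their probes on the array were taken. Of the 10 genes, 9 had a named probe, 12 probes in all among 46237 on the array. Msgn1, a basic helix-loop-helix factor of the presomitic mesoderm, had no named probe and was not analysed here. A probe was called detected on an array when its detection p-value, which ranks its signal among the negative control probes, was under 0.05. 7 of the 12 probes were detected on at least 3 of the 12 arrays, and these gave 6 genes, Tbx6, Dll1, Dll3, Ripply2, Meox1 and Tcf15, among the 11124 genes tested.

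The presomitic mesoderm is the unsegmented tissue that epiblast cells form after they pass through the primitive streak. Wnt and FGF signals keep its posterior end immature, Notch signalling drives a clock of oscillating genes within it, and at its anterior end segment boundary genes cut off somites, the blocks that give rise to vertebrae, skeletal muscle and dermis. Tbx6 and Msgn1 set the identity of this tissue, Dll1 and Dll3 encode Notch ligands, Mesp2 and Ripply2 place the boundary, Pcdh8 encodes a protocadherin of the forming boundary, and Meox1, Tcf15 and Uncx act in the somites themselves.

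RNA from the epiblast of embryos collected at E7.75, about when the first somites form, was hybridised to Illumina bead arrays. The embryos were Dkk+/+ (called control) or Dkk-/- (called knockout), and their epiblast was dissected into an anterior and a posterior region, with 3 arrays for each of the 4 combinations. The codes of the samples point to Dkk1, the gene of a secreted Wnt inhibitor. No treatment or strain background is named, and the labels do not say which arrays share embryos or how many embryos were pooled, so a p-value covers just the spread between the arrays, which may be technical.

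Mean signal per array ran from 189 to 693, and 36.2% to 42.3% of the probes were detected. Knockout posterior replicate 2 had the weakest signal, with 301 as the next lowest. The Dkk1 probe did not separate the genotypes: it read 5.98 ± 0.17 (SD, n = 3) in control anterior and 6.14 ± 0.14 (SD, n = 3) in knockout anterior arrays. In posterior arrays it was detected on 2 of 3 control and 0 of 3 knockout arrays. The sources used here do not place this probe inside or outside the deletion, so "knockout" names the arrays that carry this label, and the directions between genotypes depend on the labels.

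The promoters of the 3 genes that passed the test between genotypes in the anterior region (Tbx6, Dll1 and Ripply2, below) are shown to give the sequence next to their start sites. They are from RefSeq (GRCm38.p6), run 5′ to 3′ on the strand of the gene and span 250 bases before to 50 bases after the start. Capitals mark any match, on either strand, to the TCF/LEF core CTTTGA, the T-box core GGTGTGA or the RBPJ site TGGGAA, the sites bound by the nuclear effectors of Wnt signalling, by T-box factors and by the nuclear effector of Notch.
Tbx6, chr7:126781233-126781532, plus strand: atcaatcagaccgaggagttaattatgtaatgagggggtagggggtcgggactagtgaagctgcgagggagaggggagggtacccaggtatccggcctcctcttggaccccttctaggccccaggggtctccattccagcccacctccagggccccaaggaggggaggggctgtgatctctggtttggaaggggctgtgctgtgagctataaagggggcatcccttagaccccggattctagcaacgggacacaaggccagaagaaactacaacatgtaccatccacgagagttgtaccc
Dll1, chr17:15376883-15377182, minus strand: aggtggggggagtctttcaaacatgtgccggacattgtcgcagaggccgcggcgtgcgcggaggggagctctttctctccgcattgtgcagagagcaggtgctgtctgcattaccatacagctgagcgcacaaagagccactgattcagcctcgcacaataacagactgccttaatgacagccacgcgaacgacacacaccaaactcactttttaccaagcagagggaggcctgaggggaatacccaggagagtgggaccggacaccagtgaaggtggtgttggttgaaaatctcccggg
Ripply2, chr9:87015287-87015586, plus strand: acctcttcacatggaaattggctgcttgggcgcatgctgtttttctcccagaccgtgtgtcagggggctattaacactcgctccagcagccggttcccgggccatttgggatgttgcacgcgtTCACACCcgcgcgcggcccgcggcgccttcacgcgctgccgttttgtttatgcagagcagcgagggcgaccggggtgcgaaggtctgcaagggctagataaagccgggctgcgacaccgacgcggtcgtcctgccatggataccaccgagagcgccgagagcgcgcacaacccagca
The Ripply2 window holds 1 T-box core, on the strand opposite to the gene (read as TCACACC on the gene's strand), with its first base 127 bases before the start. A T-box core occurs in 3.98% of the 32851 mouse promoters in the table, a TCF/LEF core in 16% and an RBPJ site in 25.6%. None of these letters occurs in the Tbx6 and Dll1 windows. E-boxes, the sites of basic helix-loop-helix factors (CANNTG), which 72.3% of all promoters hold, occur 3 times in the Dll1 window and 2 times in the Ripply2 window, and not in that of Tbx6; they are not capitalised. The table holds promoters for 8 of the 10 genes, and for 7 of them at the gene's annotated start.

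Levels are log2 normalized intensities, given in the order of replicates 1, 2 and 3. Tbx6, a T-box factor that directs streak descendants to paraxial mesoderm rather than neural fate, lies on chromosome 7 (126781483 to 126785548, GRCm38.p6). Its brighter probe read 6.54, 6.61 and 6.64 on the control anterior arrays and 8.26, 7.54 and 8.08 on the knockout anterior arrays. On posterior arrays it read 10.65, 10.6 and 10.61 in control and 10.73, 10.64 and 11.04 in knockout. The groups followed each other from control anterior through knockout anterior to the posterior groups without overlap, and the posterior groups overlapped each other. The probe was detected on all 12 arrays.

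Tbx6 has another probe, which was dimmer. It was detected on no control anterior array, on 1 of 3 knockout anterior arrays and on all 6 posterior arrays. It read 4.47, 4.48 and 4.35 in control anterior, 5.12, 4.94 and 4.48 in knockout anterior, 7.95, 7.751 and 7.43 in control posterior and 8.02, 7.98 and 7.77 in knockout posterior arrays. By this probe too the posterior arrays lay far above the anterior ones, but the anterior groups overlapped.

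Dll1, on chromosome 17 (15367354 to 15376932), encodes the Notch ligand that activates receptors on neighbouring cells in the presomitic mesoderm. It read 6.18, 6.17 and 6.08 in control anterior, 7.2, 7.01 and 7.27 in knockout anterior, 8.96, 9.58 and 9.14 in control posterior and 9.46, 9.64 and 9.54 in knockout posterior arrays. Its groups stood in the same order as those of Tbx6, with the same overlap between the posterior groups only. Dll3, on chromosome 7 (28293555 to 28301785), encodes a divergent Notch ligand that in the mouse acts inside the cell and does not activate receptors on its neighbours. Dll3 was much dimmer, and was detected on 1 of 3 control anterior, 2 of 3 knockout anterior and all 6 posterior arrays. It read 4.74, 5 and 4.49 in control anterior, 5.53, 4.89 and 5.38 in knockout anterior, 6.05, 5.92 and 5.68 in control posterior and 5.76, 6.13 and 6.63 in knockout posterior arrays. The anterior groups overlapped, the posterior groups overlapped, and each posterior array lay above each anterior array of either genotype.

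Ripply2, on chromosome 9 (87015537 to 87020441), encodes a nuclear protein that in the mouse ends Tbx6 activity where the next boundary forms. Its level had a different order. It read 4.82, 4.97 and 5.41 in control anterior, 6.75, 6.68 and 6.5 in knockout anterior, 5.94, 5.65 and 6.46 in control posterior and 6.16, 5.38 and 6.23 in knockout posterior arrays. The knockout anterior arrays were the highest of all 12, though the lowest of them, at 6.5, was next to the brightest control posterior array, at 6.46. The control anterior arrays were lowest as a group but overlapped the knockout posterior arrays. It was detected on 2 of 3 control anterior arrays and on the other 9 arrays.

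Meox1, on chromosome 11 (101877510 to 101894354), is a homeobox gene needed for normal somites and vertebrae. It read 5.25, 6.6 and 5.99 in control anterior, 7.74, 9.28 and 7.1 in knockout anterior, 8.72, 8.23 and 8.76 in control posterior and 8.38, 9.16 and 8.78 in knockout posterior arrays. The knockout anterior arrays were the most scattered of any of the 6 genes in any group (SD 1.12), all lay above the control anterior arrays, and they overlapped the posterior ones. Tcf15, on chromosome 2 (152143056 to 152149097), encodes paraxis, a basic helix-loop-helix factor needed for somites to become epithelial. It read 7.748, 8.29 and 8.3 in control anterior, 9.53, 9.29 and 9.23 in knockout anterior, 7.82, 6.62 and 8.29 in control posterior and 7.35, 7.03 and 7.56 in knockout posterior arrays. Tcf15 was highest in knockout anterior arrays, each of which lay above every other array, and lowest in the posterior ones.

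**Figure D1:**
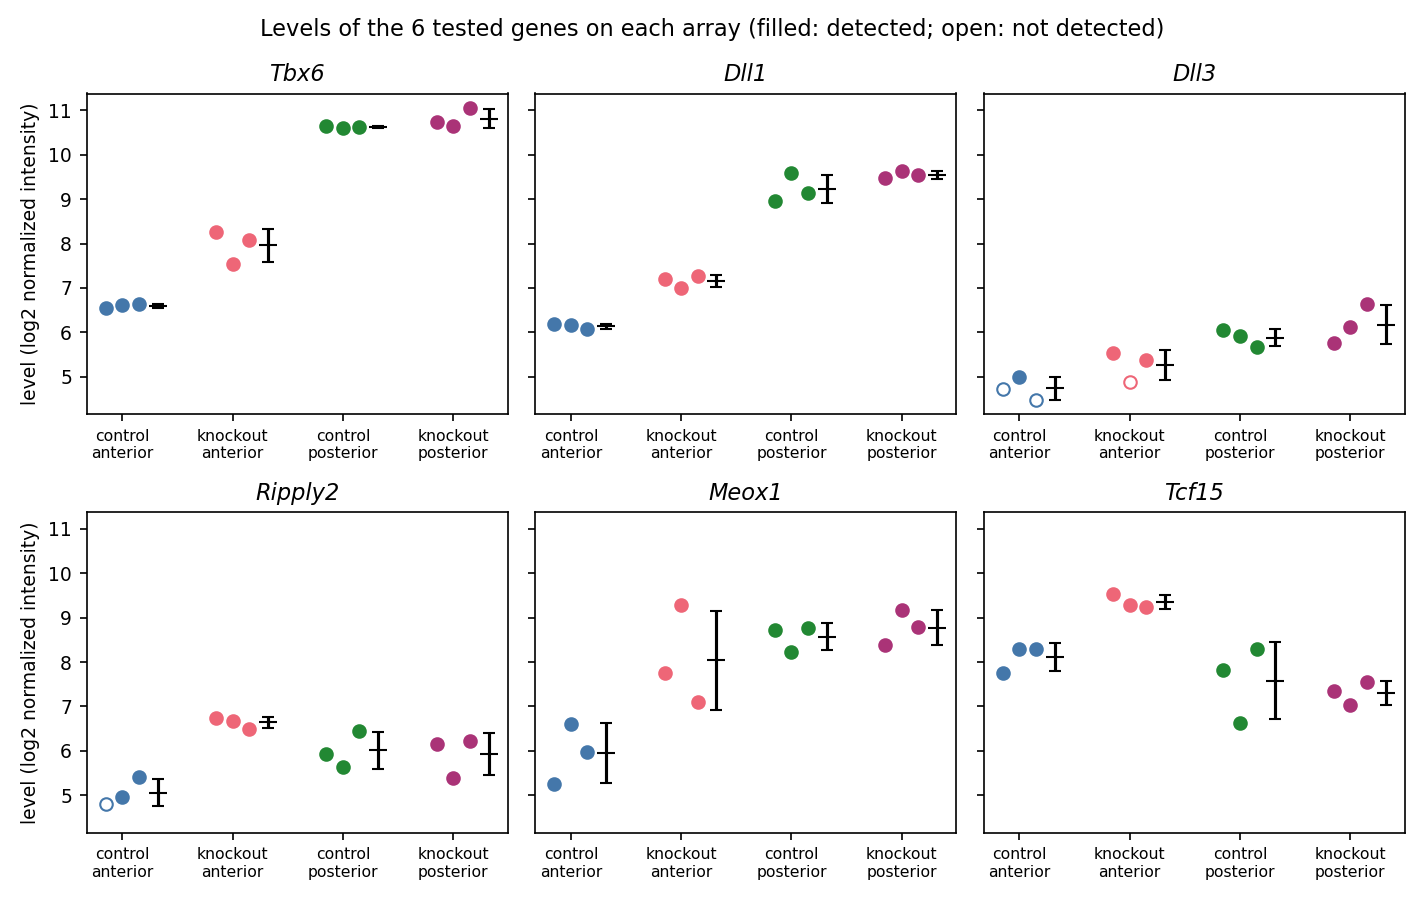
Levels of the 6 tested genes (log2 normalized intensity, y axis) on each of the 12 arrays, by group (x axis); filled points are detected and open points are not, and black marks show the mean and SD of 3 arrays. Tbx6 and Dll1 rise from control anterior to knockout anterior to posterior arrays, whereas Ripply2 and Tcf15 are highest in knockout anterior arrays.

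The comparison of posterior with anterior arrays in control embryos describes the normal regional pattern of these genes. 5 of the 6 tested genes rose posteriorly and none fell, against 2.69% of the 11124 genes that rose and 2.29% that fell in this comparison (limma, adjusted p under 0.05). Tbx6 rose by 4.02 on the log2 scale (SE 0.17, adjusted p = 2.6e-08), a 16.25-fold difference, and ranked 3rd of all genes by size of rise. Dll1 rose by 3.08 (SE 0.16, adjusted p = 6.3e-08), or 8.46-fold, and Meox1 by 2.62 (SE 0.46, adjusted p = 0.0042), or 6.16-fold. Dll3 rose by 1.14 (SE 0.23, adjusted p = 0.01), and Ripply2 by 0.95 (SE 0.25, adjusted p = 0.047). Tcf15 did not pass, with a change of -0.54 (SE 0.33, adjusted p = 0.45). The median change of the 6 genes was 1.88 and that of all genes 0.009.

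By its other probe, Tbx6 was at least 7.19-fold higher in control posterior than in control anterior arrays, with the undetected arrays raised to their lowest detected signal (limma over all detected probes, adjusted p = 2e-07). This probe met the detection filter through the posterior arrays, where it was brighter. The Ripply2 call was near the threshold and was lost under 13 of 23 alternative settings, among them leaving out control anterior replicate 1 (0.82, adjusted p = 0.16), control anterior replicate 2 (0.9, adjusted p = 0.14), control posterior replicate 1 (0.99, adjusted p = 0.11), control posterior replicate 3 (0.73, adjusted p = 0.18) or single knockout arrays (adjusted p between 0.052 and 0.062). Without background correction it was 0.35 (adjusted p = 0.08). The Dll3 call was lost without control anterior replicate 3 (1.01, adjusted p = 0.056) or control posterior replicate 1 (1.05, adjusted p = 0.051).

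In knockout embryos the same regional comparison gave 3 genes that rose posteriorly and 1 that fell, against 3.56% and 4.31% of all genes. Tbx6 rose by 2.85 (SE 0.17, adjusted p = 5.7e-07), or 7.19-fold, and Dll1 by 2.39 (SE 0.16, adjusted p = 1e-06), or 5.24-fold. Dll3 rose by 0.91 (SE 0.23, adjusted p = 0.03). Tcf15 fell by 2.04 (SE 0.33, adjusted p = 0.0023), to 0.24 of its anterior level, and ranked 11114th of the 11124 genes from the largest rise to the largest fall. Ripply2 changed by -0.72 (SE 0.25, adjusted p = 0.099) with all posterior arrays below all anterior ones, and Meox1 by 0.74 (SE 0.46, adjusted p = 0.37). The median change of the 6 genes was 0.82 and that of all genes -0.011. The Dll3 call was lost under 7 of 23 alternative settings. These were leaving out knockout anterior replicate 2 (0.72, adjusted p = 0.11) or 3 (0.96, adjusted p = 0.06) or knockout posterior replicate 2 (0.93, adjusted p = 0.057) or 3 (0.68, adjusted p = 0.094), median scaling (1.12, adjusted p = 0.059), no filter (0.91, adjusted p = 0.054) and the fit of only the groups compared (0.91, adjusted p = 0.12).

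The comparison of knockout with control anterior arrays asks which of these genes change in the region that forms the head. 3 of the 6 tested genes rose and none fell, against 0.324% of all genes that rose and 0.18% that fell. The rise was 1.58 for Ripply2 (SE 0.25, adjusted p = 0.015), or 2.98-fold. It was 1.36 for Tbx6 (SE 0.17, adjusted p = 0.0045), or 2.57-fold, and 1.01 for Dll1 (SE 0.16, adjusted p = 0.015), or 2.02-fold. Set beside the regional differences, knockout anterior Tbx6 and Dll1 remained below the posterior arrays of their own genotype by 2.85 and 2.39. For Ripply2 the posterior change in knockout embryos was -0.72, which did not pass (limma, adjusted p = 0.099). Its knockout anterior mean stood 0.63 above the mean of the control posterior arrays, a difference that was not tested.

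The other 3 genes did not pass in the anterior region. Meox1 had the largest estimate of the 6, 2.09 (SE 0.46, adjusted p = 0.084), and it ranked 2nd of the 11124 genes by size but 75th by p. The change of Tcf15 was 1.23 (SE 0.33, adjusted p = 0.18). For both, each knockout anterior array lay above each control anterior array. In all, 5 of the 6 genes had such arrays, against 7.24% of all genes. Dll3 changed by 0.52 (SE 0.23, adjusted p = 0.53), with overlapping arrays. The median change of the 6 genes was 1.29 and that of all genes 0.004.

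The anterior calls differed in how far they rested on single arrays. Tbx6 passed with each of the 12 arrays left out in turn, with a rise of 0.87 to 1.57 over all alternative settings. Its other probe, not detected on any control anterior array, gave a change of 0.41 (SE 0.18), which did not pass in the fit over all detected probes (adjusted p = 0.61). Dll1 was not past the threshold without control anterior replicate 2 (1.03, adjusted p = 0.063), control anterior replicate 3 (0.98, adjusted p = 0.051) or knockout anterior replicate 1 (0.99, adjusted p = 0.051). Ripply2 was not past it without control anterior replicate 1 (1.45, adjusted p = 0.079), control anterior replicate 2 (1.53, adjusted p = 0.086), knockout anterior replicate 1 (1.53, adjusted p = 0.06) or knockout anterior replicate 2 (1.56, adjusted p = 0.063). Each of these fits has 1 array fewer, and with any array left out the estimates lay between 1.45 and 1.75 for Ripply2 and between 0.96 and 1.09 for Dll1. Without background correction, and in the series matrix, all 3 changes were smaller and still passed: 0.65 for Ripply2 (adjusted p = 0.012), 0.55 for Dll1 (adjusted p = 0.039) and 0.87 for Tbx6 (adjusted p = 0.0029). With an offset of 50 Ripply2 rose by 0.98 (adjusted p = 0.0056). In the other direction, Meox1 passed without knockout anterior replicate 3 (2.56, adjusted p = 0.035) and with the offset of 50 (1.64, adjusted p = 0.044). The size of the Meox1 change rested in part on knockout anterior replicate 2, its brightest array: it was 1.47 (adjusted p = 0.15) without that array. With array weights the Meox1 change was 1.22 (adjusted p = 0.056). These weights were 0.34 for knockout anterior replicate 2 and 5.71 for control anterior replicate 2, the brightest control anterior array for Meox1. The weighted value therefore does not single out 1 array. Tcf15 passed under 6 settings, among them the fit of only the 2 anterior groups (1.23, adjusted p = 0.039) and the fit without control posterior replicate 2 (1.23, adjusted p = 0.027).

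**Figure D2:**
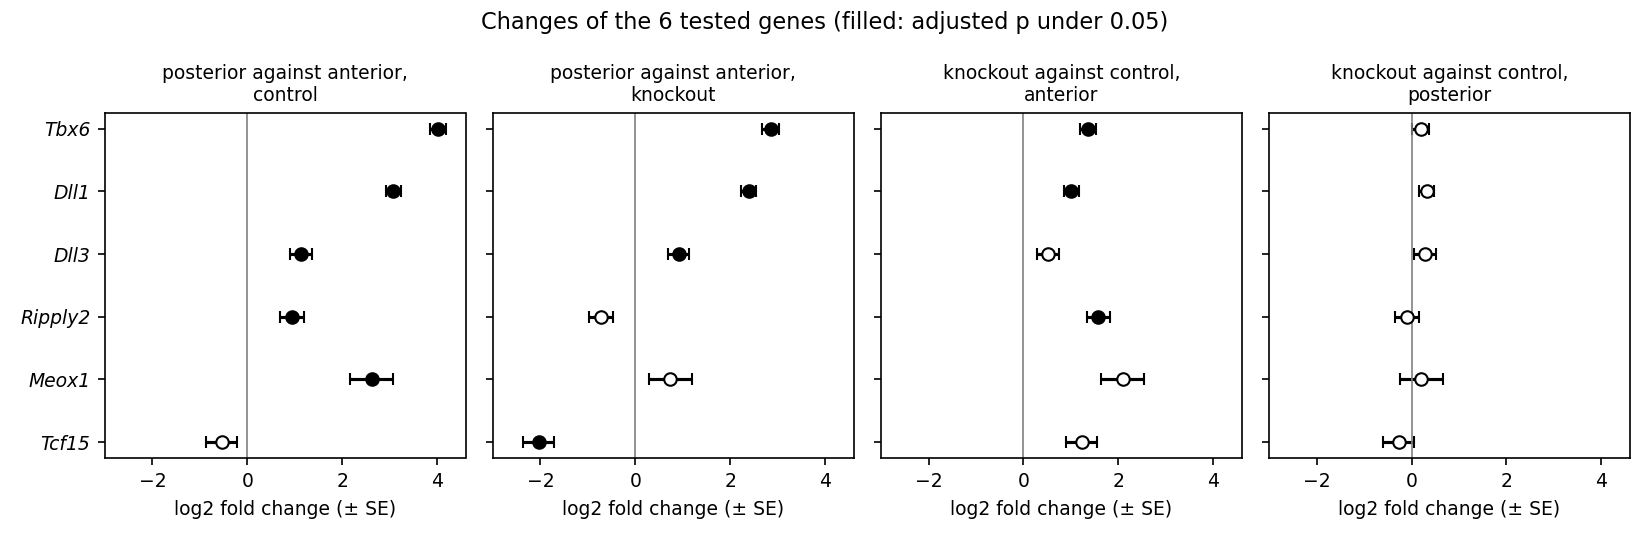
Log2 changes with SE (x axis) of the 6 tested genes (y axis) in the comparisons of genotypes and regions. The 6 changes between genotypes are all above 0 in the anterior region, where Tbx6, Dll1 and Ripply2 pass the test, and lie between -0.27 and 0.32 in the posterior region.

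The comparison of knockout with control posterior arrays gave 0 of the 6 genes past the threshold by limma, and 0 at an unadjusted p under 0.05. Of all genes, 0% were called, and 1104 had an unadjusted p under 0.05. The changes were 0.19 for Tbx6 (SE 0.17), 0.32 for Dll1 (SE 0.16), 0.29 for Dll3 (SE 0.23), -0.09 for Ripply2 (SE 0.25), 0.21 for Meox1 (SE 0.46) and -0.27 for Tcf15 (SE 0.33), with adjusted p-values from 0.52 to 0.93. The arrays of the 2 genotypes overlapped for each of the 6 genes. The sign of the small Ripply2 change turned under 4 alternative settings, from -0.09 to between 0.07 and 0.37.

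Whether the genotype difference itself differed between the regions was tested as an interaction, in which a value below 0 means a smaller genotype change in posterior than in anterior arrays. None of the 6 genes passed by limma, 0.00899% of all genes were called, and 5 of the 6 had an unadjusted p under 0.05, as did 685 of all genes. All 6 estimates were below 0. They were -1.67 for Ripply2 (SE 0.35, adjusted p = 0.23), -1.18 for Tbx6 (SE 0.24, adjusted p = 0.23), -1.89 for Meox1 (SE 0.65, adjusted p = 0.72), -1.5 for Tcf15 (SE 0.47, adjusted p = 0.66), -0.69 for Dll1 (SE 0.22, adjusted p = 0.67) and -0.23 for Dll3 (SE 0.32, adjusted p = 0.95). A difference of the genotype effect between the regions was therefore not shown at this threshold. Tbx6 alone passed under 2 alternatives, with trended and robust variances (-1.18, adjusted p = 0.04) and with array weights (-1.22, adjusted p = 0.029). The array weights gave control anterior replicate 2 a weight of 5.71, with 1.54 as the next highest. The dimmer Tbx6 probe gave an interaction of -0.19 (SE 0.26), which did not pass in the limma fit over all detected probes (adjusted p = 0.96).

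**Figure D3:**
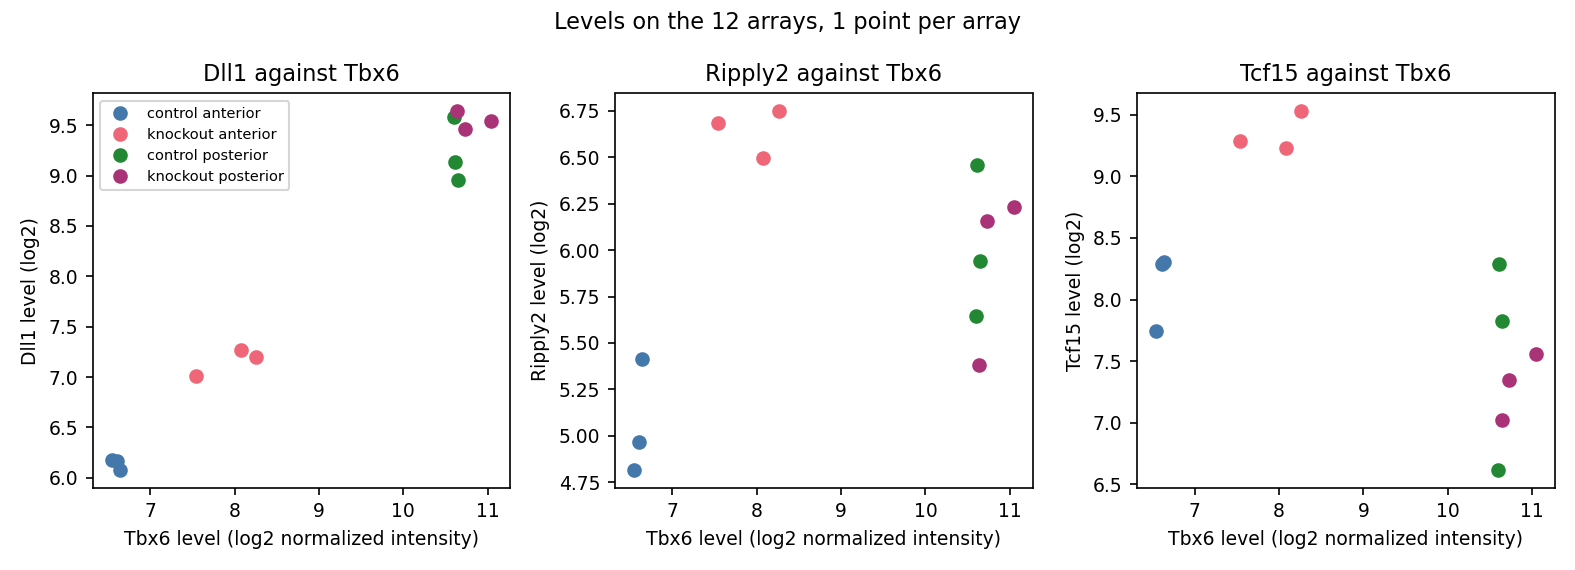
Levels of Dll1, Ripply2 and Tcf15 (y axis, log2 normalized intensity) against the level of Tbx6 (x axis, log2 normalized intensity), 1 point per array, by group. Dll1 lies along a rising line with Tbx6 over the 12 arrays, and Ripply2 and Tcf15 do not, with the knockout anterior arrays on top.

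Across the 12 arrays Dll1 followed Tbx6 most closely (Pearson r = 0.99), then Dll3 (0.92) and Meox1 (0.77). Ripply2 (0.33) and Tcf15 (-0.56) did not follow it, and they had an r of 0.54 with each other. These values are descriptions, since the 12 points fall into 4 groups that shape them. Within the knockout anterior group, replicate 1 was the highest of its 3 arrays for 4 of the 6 genes, though the Meox1 maximum of 9.28 was in replicate 2. Control anterior replicate 1 and control posterior replicate 2 were the lowest of their groups for 4 genes each, and knockout posterior replicate 3 was the highest of its group for 4.

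The remaining genes with probes, Mesp2, Pcdh8 and Uncx, were at or near background. Mesp2 (chromosome 7, 79810727 to 79813431), the basic helix-loop-helix factor that sets the next segment boundary, was detected on 0 of 12 arrays, with group means from 4.33 to 4.5. The lowest signal of a detected probe ran from 4.81 to 5.13 over the arrays. Pcdh8 (chromosome 14, 79766772 to 79771312) had 1 probe detected on 1 array, control posterior replicate 1 (4.93), and another detected on none. Uncx (chromosome 5, 139543865 to 139548179), a homeobox gene of the caudal compartment of each somite, was detected by neither of its probes, of which 1 carries the older name Uncx4.1. These 3 genes gave no level above background and were not tested. A signal not above background does not show that the transcript was absent.

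**Figure D4:**
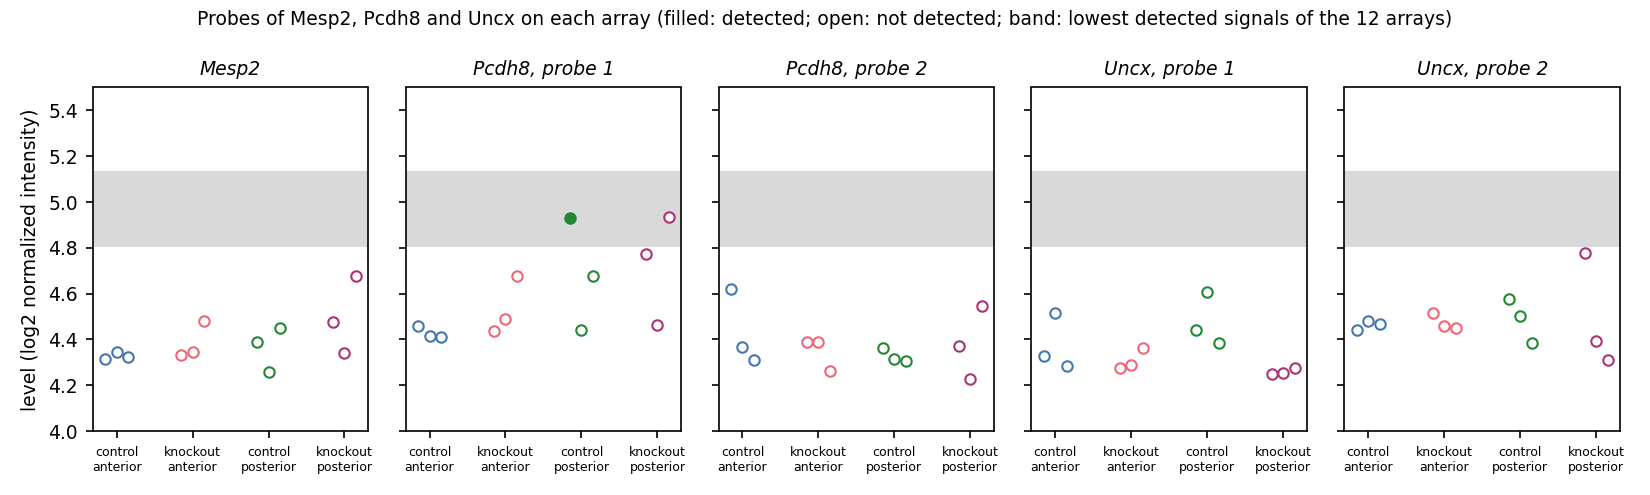
Levels (y axis, log2 normalized intensity) of the 5 probes of Mesp2, Pcdh8 and Uncx on the 12 arrays by group (x axis); filled points are detected, and the grey band spans the lowest detected signals of the arrays, 4.81 to 5.13. All points are open except that of the Pcdh8 probe on control posterior replicate 1, at 4.93.

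Lists of genes around the 10 were counted in the same fits. Of the Wnt, FGF and streak regulators that act upstream of the presomitic mesoderm, 16 of 18 were tested. In the anterior region 2 rose in knockout arrays and none fell: Sp5, a direct Wnt target, by 1.19 (adjusted p = 0.00047), and the ligand Wnt8a by 1.32 (adjusted p = 0.028). Fgf8, the FGF ligand of the streak, changed by 0.93 (adjusted p = 0.06), and Cdx2, a homeobox factor of the posterior body, by 0.71 (adjusted p = 0.08). The list's median change was 0.68. In control embryos 15 of the 16 were higher posteriorly, led by Wnt3a, a ligand of the tail bud, at 6.3 (adjusted p = 1e-08), and the list's median was 2.63. In knockout embryos 14 of 16 were higher posteriorly, with a median of 2.04. Between genotypes in the posterior region none of the 16 passed, with a median of 0.08, and none passed the interaction, with a median of -0.57.

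Of the Notch pathway and segmentation clock, 17 of 24 genes were tested. In the anterior region 2 rose in knockout arrays: the receptor gene Notch1 by 1.02 (adjusted p = 0.015) and Axin2, a Wnt feedback inhibitor that oscillates in the presomitic mesoderm, by 0.65 (adjusted p = 0.032). The median of the list was 0.09. In control embryos 5 were higher posteriorly, among them Axin2 (1.8, adjusted p = 8e-07), Nrarp, a Notch feedback gene (1.3, adjusted p = 7.1e-05), Notch1 (1.09, adjusted p = 0.0013) and Dusp6, an FGF feedback phosphatase (1, adjusted p = 0.0013). The median was 0.48. In knockout embryos 8 were higher posteriorly, with a median of 0.46. They include Hes7, the clock repressor, which was detected on no anterior array and on 2 of 3 arrays of each posterior group. Hes7 met the detection filter only through posterior arrays, so its call is no separate support for a posterior rise. Lfng, which modifies Notch receptors in the clock, was not detected on 3 arrays. None of the 17 passed between genotypes posteriorly (median 0.08) or in the interaction (median -0.02).

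Of the genes of segment boundaries, somite polarity and paraxial mesoderm, 17 of 21 were tested, and 4 rose in knockout anterior arrays: Twist1, a mesenchymal helix-loop-helix factor, by 1.19 (adjusted p = 0.0065), Aldh1a2, which makes retinoic acid, by 1.66 (adjusted p = 0.015), the forkhead gene Foxc2 by 1.46 (adjusted p = 0.015) and Tbx1, a T-box gene of pharyngeal mesoderm, by 1.48 (adjusted p = 0.02). The list's median was 0.23. Foxc2, Twist1 and Tbx1, like Ripply2 and Tcf15, had their highest means in knockout anterior arrays. For Foxc2 the order of the other groups matched neither Ripply2 nor Tcf15. Its means were 7.51 in control anterior, 8.97 in knockout anterior, 7.68 in control posterior and 7.26 in knockout posterior arrays. In control embryos 3 genes were higher posteriorly, Aldh1a2 (2.83, adjusted p = 1.3e-05), Mesp1, an early mesoderm factor (2.05, adjusted p = 0.00022), and Epha1 (1.95, adjusted p = 2.8e-06). Another 3 were lower, among them Cyp26a1, which degrades retinoic acid (-1.36, adjusted p = 0.00072), and the list's median was 0.11. In knockout embryos 3 were higher and 6 lower posteriorly, with Foxc2 at -1.7 (adjusted p = 0.00061) and a median of -0.24. None passed between genotypes posteriorly (median 0.09) or in the interaction (median -0.21). Of 13 genes of somite derivatives only Sox9, which is also expressed outside somites, was tested, and 10, among them Pax1, Pax7, Myf5 and Myod1, were not detected on 3 arrays.

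Markers of the tissues that the dissected pieces could hold were summed as linear normalized levels. In the anterior region, the sums of cranial and cardiac mesoderm markers were higher in knockout than in control arrays. Those of anterior neural plate, epiblast and extraembryonic ectoderm markers were lower, and those of primitive streak markers overlapped. Cranial and cardiac mesoderm markers (8 of 9 tested) summed to 2230 to 2590 in control anterior and 3370 to 3560 in knockout anterior arrays. Of the 8, 2 rose, Tbx1 and Myl2. The other 6 did not pass, among them Mesp1 (0.85, adjusted p = 0.26), which was brighter than both. Anterior neural plate markers (3 of 9 tested) summed to 2540 to 2910 in control anterior and 1160 to 1460 in knockout anterior arrays. Of the 3, Lhx5 fell (-1.21, adjusted p = 0.013), and Hesx1 and the brightest, Otx2 (-1.1, adjusted p = 0.53), did not pass. Epiblast markers (10 of 10 tested) summed to 28100 to 31500 and 22600 to 23700 in the same groups. Of the 10, 2 fell, Pou3f1 and Sox2, and Otx2 is in this list too. A sum mostly reflects its brightest markers. Primitive streak markers (7 of 8 tested) summed to 540 to 789 in control anterior, 732 to 1010 in knockout anterior and 3890 to 5150 over the posterior arrays. Of the 7 streak markers, Mixl1 and Wnt3 were detected on none of the 6 anterior arrays and the other 5 on all 6. Between genotypes in the anterior region none of the 7 rose and 1 fell, Gsc (-1.24, adjusted p = 0.015), while Fgf8 changed by 0.93 (adjusted p = 0.06) and Evx1 by 0.7 (adjusted p = 0.54). Extraembryonic ectoderm markers (5 of 5 tested) summed to 672 to 864 in control anterior and 328 to 486 in knockout anterior arrays. Of these 5 markers 1 was called lower, Rhox9 (adjusted p = 0.015), detected on 3 of 3 control and 0 of 3 knockout anterior arrays. Rhox9 was detected in no other group. It met the detection filter only through the group where it was high, so its call is no separate support for a fall. Elf5, detected on 3 of 3 control and 1 of 3 knockout anterior arrays, changed by -2.01 (adjusted p = 0.052). The part of these tissues in the anterior rise of Tbx6, Dll1 and Ripply2 was not tested. In such pieces, fewer cells of a type and less RNA per cell cannot be told apart.

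Visceral endoderm, the layer that surrounds the epiblast, left markers in all groups: 7 of 8 markers were tested, all 7 were detected on all 12 arrays, and they summed to 39800 to 43900 in control anterior, 39700 to 45200 in knockout anterior, 38800 to 40800 in control posterior and 37400 to 38200 in knockout posterior arrays. Extraembryonic and lateral mesoderm markers (6 of 8 tested) summed to 2780 to 3110 in control anterior and 3040 to 3110 in knockout anterior arrays, and none of them passed between genotypes in the anterior region.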

How the data were processed

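The probe intensity table was deposited on a linear scale, without normalization, for 46237 probes per the file headers and its values, with a detection p-value per probe and array, also per the file headers. GenomeStudio read the arrays, per the submitters' processing notes. The sources used here give neither its version nor the array model. The deposited series matrix holds log2 values of 33557 probes with a median of 6.66 on every array. Its scale was checked against the intensities, its normalization is not stated, and it served as an alternative. In the anterior genotype comparison it gave the same changes of the 6 genes as the setting without background correction. These settings are therefore not separate checks.

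The neqc function (limma 3.58.1, R 4.3.3; offset 16) subtracted background, estimated from the detection p-values, then applied quantile normalization and log2. Probes detected (p under 0.05) on at least 3 arrays were kept (21051). Names came from the platform table, updated through RefSeq (GRCm38.p6): 30058 probes had 1 name. The sources used here do not state the build of the array design, and positions are those of the RefSeq table. Each gene was represented by its kept probe with the highest mean (11124 genes). Limma fitted 4 group means per gene, and adjusted p-values are Benjamini-Hochberg over all genes, called under 0.05. Each contrast used all 12 arrays. Against simulated data for the anterior genotype comparison, run on 11124 genes, the fit recovered 75% of genes changed by 1 (log2) and 99% of genes changed by 2, and 6.95% of its calls were false. The simulated noise was independent between genes and, for each gene, equally wide on every array. The simulation held no difference between regions, so these figures need not hold for the real arrays. The number of arrays limits the precision.

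The genes and the lists were chosen with earlier results of these data known. The text names the 10 genes with all their probes, Dkk1, at most 4 genes of each list and comparison with the smallest p, and the genes whose levels were most like those of the 10. Genes of marker lists at background, Lfng, Hes7, Pax1, Pax7, Myf5, Myod1 and the Foxc2 group means were picked to show detection or order after their values were seen. Alternatives were the background correction, the offset, median scaling, the series matrix, the filter, all detected probes, trended and robust variances, array weights, the groups in the fit, the replicate number as a block, and leaving out each array.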

Additional observations from a re-analysis of the deposited data

Results flagged for a closer look

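The Ripply2 arrays were ordered oppositely along the axis in the 2 genotypes. In control embryos every posterior array lay above every anterior array (0.95, adjusted p = 0.047 by limma), a call that was lost under 13 of 23 alternative settings. In knockout embryos every posterior array lay below every anterior array (-0.72), a change that did not pass (adjusted p = 0.099). The interaction, which is the difference of these changes, was -1.67 (SE 0.35, unadjusted p = 0.00041 by limma) and was not past the threshold after adjustment over all genes (adjusted p = 0.23).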

How the results depend on the processing

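The results were recomputed under 23 alternative settings, 22 for the interaction. With each array left out in turn, the number of the 6 genes called ran from 1 to 4 between genotypes in the anterior region (3 with all arrays), stayed at 0 in the posterior region, and ran from 3 to 5 for the regions in control embryos (5 with all arrays) and from 3 to 4 in knockout embryos (4 with all arrays). The lowest anterior count, 1, came without control anterior replicate 2 or knockout anterior replicate 1. An offset of 50 gave 5 anterior calls. The interaction had 1 call, Tbx6, with trended and robust variances and 1 with array weights, against 0. The cause of these shifts was not tested, and a fit without an array also holds fewer arrays. The posterior genotype change of Ripply2 (-0.09) turned to 0.37 with median scaling, where the median of all genes was 0.16, to 0.07 with array weights, to 0.13 without control posterior replicate 3 and to 0.18 without knockout posterior replicate 2, and ran from -0.27 to 0.18 with each array left out. That of Tcf15 (-0.27) ran from -0.75 without control posterior replicate 2 to 0.09 without control posterior replicate 3.

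Tbx6 passed in all 23 settings between genotypes anteriorly and between regions in each genotype, and the fall of Tcf15 in knockout embryos passed in all 23. Over all genes, the 56 anterior calls (36 higher, 20 lower) became 542 (239 higher, 303 lower) with array weights, 94 with the offset of 50, 87 with trended and robust variances, 82 (43 higher, 39 lower) with the series matrix or with no background correction, 36 with no filter, 27 with only the groups compared, 21 (17 higher, 4 lower) with median scaling and 16 to 69 with an array left out. The 554 regional calls in control embryos became 1607 with array weights, 385 (254 higher, 131 lower, against 299 and 255) with median scaling and 330 to 663 with an array left out. The 876 in knockout embryos became 284 with only the groups compared, 470 (313 higher, 157 lower, against 396 and 480) with median scaling and 537 to 887 with an array left out. The 0 posterior genotype calls became up to 21, and the 1 interaction call up to 12.

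Deviations of same-numbered arrays correlated by -0.11 to 0.22 over all kinds of pairs. Between the regions in control embryos they correlated by 0.06, 0.21 and 0.22, and the same-numbered array was the closest for replicates 2 and 3. Elsewhere it was the closest only for replicate 1 between genotypes in the anterior region. These values do not settle whether same-numbered arrays share embryos. With the replicate number as a block the 6 genes gave 3, 0, 5, 4 and 0 calls in the 5 comparisons, the same counts as without it.

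3 arrays per group limit what can be called, and Dll3 and Ripply2 lay near the detection limit in control anterior arrays.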

Other observations

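Of the genes outside the 10, those whose levels were most like those of the 6 tested genes are given here, measured as Pearson r over the 12 arrays with the mean of their standardized levels. The 8 highest were Rhbg (0.964), an ammonia transporter gene, Gna14 (0.94), a G protein subunit gene, Rhobtb3 (0.937), Myl2 (0.93), a cardiac myosin light chain gene that is also among the cranial and cardiac mesoderm markers above, Ifitm1 (0.93), an interferon-induced membrane protein gene, Plpp4 (0.93), Pdlim4 (0.922) and Prkd1 (0.919), a kinase gene. Rhbg had means of 4.74 in control anterior, 6.13 in knockout anterior, 6.58 in control posterior and 6.53 in knockout posterior arrays. The mean of the 6 genes does not stand for Tcf15, whose r with the mean of the other tested genes was -0.3.

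For single genes, Tbx6 was most like Nkx1-2 (0.992), a homeobox gene of the caudal epiblast that is also in the list of Wnt, FGF and streak regulators, and Dock11 (0.992). Dll1 was most like Notum (0.994), which encodes a secreted Wnt inhibitor, and Rnf213 (0.994). Nkx1-2 had means of 6.37, 7.29, 9.65 and 9.56 and Notum of 4.98, 5.72, 7.66 and 8.06, in the same order of groups. Dll3 was most like Cdhr5 (0.95) and Gpnmb (0.939), and Meox1 like Meis2 (0.973), a homeobox gene, and Arg1 (0.954). Tcf15 was most like Bok (0.927) and Ebf2 (0.925), and Ripply2 like Ssb (0.862) and 2610019N19Rik (0.838). These are descriptions over 12 arrays that fall into 4 groups.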
